A study of Mus musculus with 6 samples.

Results

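The imprinted genes of the mouse were followed in fetal testis by a list of 35 genes. They are expressed mainly from 1 parental allele in some or all tissues, 19 from the paternal and 15 from the maternal allele. Gnas was counted apart because its transcripts differ in parental origin. Maternal expression of Ube3a refers to neurons, and that of Ascl2, Cd81, Tssc4, Ppp1r9a, Slc22a18 and Dcn chiefly to placenta. Parental origin in fetal testis was not tested for any gene. A gene entered when the accession of an array probe mapped to it, which was so for 30 of the 35 genes and for 46 probes. These were 16 paternally expressed genes, 13 maternally expressed genes and Gnas, among 16535 named genes on the array. Rtl1, Kcnq1ot1, Magel2, H19 and Meg3 had no matched probe and were not analysed here. The 30 genes lie on 9 chromosomes, with 15 on chromosome 7 and 6 on chromosome 6. Each gene is given by its brightest probe, and the other probes of a gene are named beside it.

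The arrays measured total RNA of E14.5 male gonads on a mixed ICR and N2 background. There were 2 arrays of each genotype, described as biological duplicates with no word on litters or the number of embryos. The Nanos2+/- gonads carried 1 functional allele of Nanos2 and served as the control. The Nanos2-/- gonads had none. The Nanos2-/-_Tg+ gonads were Nanos2-/- and carried in addition 3×FLAG-Nanos2-ΔN10, a transgene driven by the upstream enhancer of Nanos2 in male germ cells. NANOS2 is an RNA-binding protein of male germ cells, and the variant lacks the N-terminal residues through which it contacts the CCR4-NOT deadenylation complex. The transgenic arrays asked what the variant can still do without wild-type NANOS2.

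An imprinted gene is read mainly from 1 parental copy, under a control region that carries DNA methylation on 1 parental copy only, laid down in the germ line and kept in the body. Depending on the cluster, the copy that is read is the methylated or the unmethylated one. Primordial germ cells erase these marks, and male germ cells of the fetal testis write the paternal set anew with DNMT3A and its partner DNMT3L. Many imprinted genes act on fetal growth, such as Igf2, Igf2r, Grb10 and Cdkn1c, and they lie in clusters that share 1 control region. A whole gonad holds germ cells, Sertoli cells, Leydig cells, vessels and stroma, and most imprinted genes are read in its somatic cells. The arrays do not separate the parental alleles, and fewer cells of a type and less RNA per cell cannot be told apart.

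The promoters of the genes differ in sequence. Of the 35 genes, 28 had 1 or more windows in the RefSeq promoter table (build GRCm38.p6, 250 bases before to 50 after the start of transcription), 45 windows in all, and some windows of a gene overlap. Cdkn1c, Dcn, H19, Impact, Peg10, Rtl1 and Sgce had no entry. The median ratio of observed to expected CpG, the dinucleotide that carries DNA methylation, was 0.513 over 25 windows of paternally expressed genes and 0.699 over 16 windows of maternally expressed genes. Over all 32851 windows of the table it was 0.384. The ratio was over 0.6 in 36.0% of paternal, 68.8% of maternal and 35.8% of all windows, so by that measure the paternal windows were near all windows. A gene with several windows counts once for each. The letters TGCCGC, the core motif bound by the imprint-protecting factor ZFP57, were searched on both strands, where the reverse reads GCGGCA. They were in 7 of 25 paternal windows, 3 of 16 maternal windows and 11.6% of all windows. By gene this was 6 of 15 paternally expressed, 3 of 12 maternally expressed and 3527 of all 27025 genes, since 2 overlapping Mest windows hold the same matches. The most in any window of a listed gene, 2 matches, were found for Nap1l5 and Mest. The motif holds a CpG, and the part of CpG content in these shares was not tested. A match is a description of the window and not a bound site.

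The windows of Peg3 and Slc22a18 are shown because the lowest readings relative to Nanos2+/- came from these genes, and their CpG are in capitals. The Peg3 window (chr7:6730370-6730669, minus strand) shares 263 bases with that of Usp29, which is read in the other direction from the same promoter. The window of Slc22a18 (chr7:143473539-143473838, plus strand) holds 2 CpG against 13 in that of Peg3. The window of Nap1l5 (chr6:58907077-58907376, minus strand) is shown for its 2 matches to TGCCGC, and there the capitals mark that motif. Each runs 5′ to 3′ on the strand of the gene.
Peg3: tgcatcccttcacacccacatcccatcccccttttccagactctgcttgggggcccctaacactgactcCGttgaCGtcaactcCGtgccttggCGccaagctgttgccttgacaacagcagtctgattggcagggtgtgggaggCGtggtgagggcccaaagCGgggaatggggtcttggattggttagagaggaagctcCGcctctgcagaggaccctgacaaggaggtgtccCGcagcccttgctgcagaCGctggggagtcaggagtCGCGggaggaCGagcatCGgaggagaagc
Slc22a18: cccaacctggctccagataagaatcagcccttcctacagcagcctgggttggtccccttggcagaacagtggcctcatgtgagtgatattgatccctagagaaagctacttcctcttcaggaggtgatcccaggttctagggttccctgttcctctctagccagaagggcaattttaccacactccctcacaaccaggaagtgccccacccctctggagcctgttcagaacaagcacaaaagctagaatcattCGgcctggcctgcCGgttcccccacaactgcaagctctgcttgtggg
Nap1l5: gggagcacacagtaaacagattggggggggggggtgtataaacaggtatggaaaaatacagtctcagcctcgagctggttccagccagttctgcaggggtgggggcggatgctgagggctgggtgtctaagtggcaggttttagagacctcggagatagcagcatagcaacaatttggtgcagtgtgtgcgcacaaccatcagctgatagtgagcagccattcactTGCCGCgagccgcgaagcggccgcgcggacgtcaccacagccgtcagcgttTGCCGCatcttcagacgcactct

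Processed signals were scaled to a common median, raised to at least 5 and put on log2, and levels below are on this scale. Tests took the probes that stood well above background on the 2 arrays of 1 genotype or more. All 30 genes passed through their brightest probe, which was well above background on all 6 arrays, as did 12982 of the named genes. Well above background were 64.1 to 66.7% of all probes, and median signals were 66.2 to 96.6 before scaling. The Nanos2 probe read 9.42 and 10.78 in Nanos2+/-, stood at the floor of 2.32 on both Nanos2-/- arrays, and read 13.28 and 14.25 in Nanos2-/-_Tg+. Of 6 mesonephros markers, Pax2 was never well above background, and of 3 matched adrenal markers neither was Cyp11b2 or Cyp21a1. The germ cell markers Ddx4 and Dazl were bright on every array. The 2 Nanos2+/- arrays were on a slide of their own, so that a difference from Nanos2+/- and a difference between slides cannot be told apart. The Nanos2-/- and Nanos2-/-_Tg+ arrays shared the other slide.

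No imprinted gene passed the test in any comparison, and the changes of the 30 genes were of the size seen over all genes. With limma over all 6 arrays, a call needed a Benjamini-Hochberg adjusted p below 0.05 over all 26711 tested probes and a change of 2-fold or more. It was made for 0 of 30 genes between Nanos2-/- and Nanos2+/-, 0 of 30 between Nanos2-/-_Tg+ and Nanos2+/-, and 0 of 30 between Nanos2-/-_Tg+ and Nanos2-/-. Among all named genes tested the shares called were 0.0462, 0.108 and 0.0154%, so that calls in a list of 30 genes would be rare at the background rate as well. Unadjusted and with a 2-fold limit, the methods' t-test called 0, 0 and 0 of the 30 genes, against 0.555, 0.755 and 0.100% of all genes. At an unadjusted limma p below 0.05, 1 of 30 genes was found in each comparison with Nanos2+/-, the same gene Slc22a18, and 0 of 30 between Nanos2-/-_Tg+ and Nanos2-/-. All genes gave 8.50, 10.2 and 1.73% under that rule.

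By its brightest probe, no gene changed by 2-fold in any of the 3 comparisons, against 2.80, 3.21 and 0.601% of all named genes. The median absolute log2 change of the 30 genes was 0.16, 0.17 and 0.12, beside 0.18, 0.19 and 0.11 over all genes. For the 16 paternally expressed genes the median log2 change was -0.04 in Nanos2-/- and 0.02 in Nanos2-/-_Tg+ relative to Nanos2+/-. For the 13 maternally expressed genes it was -0.02 and 0.06, and for all genes -0.07 and -0.02. These medians lay within the spread of the list medians between replicates, an SD of 0.12 for paternally and 0.13 for maternally expressed genes. These 2 comparisons share the Nanos2+/- arrays. The 95% limma intervals reached a median of 0.47 to either side of the change, so that a change well under 2-fold could not be told from 0. In each comparison with Nanos2+/- the interval lay within a 2-fold change for 26 of 30 genes, and between Nanos2-/-_Tg+ and Nanos2-/- for all 30. The genes whose interval reached 2-fold were Ascl2, Slc22a18 and Snrpn in both comparisons with Nanos2+/-, Peg10 in Nanos2-/- and Asb4 in Nanos2-/-_Tg+.

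**Figure D1:**
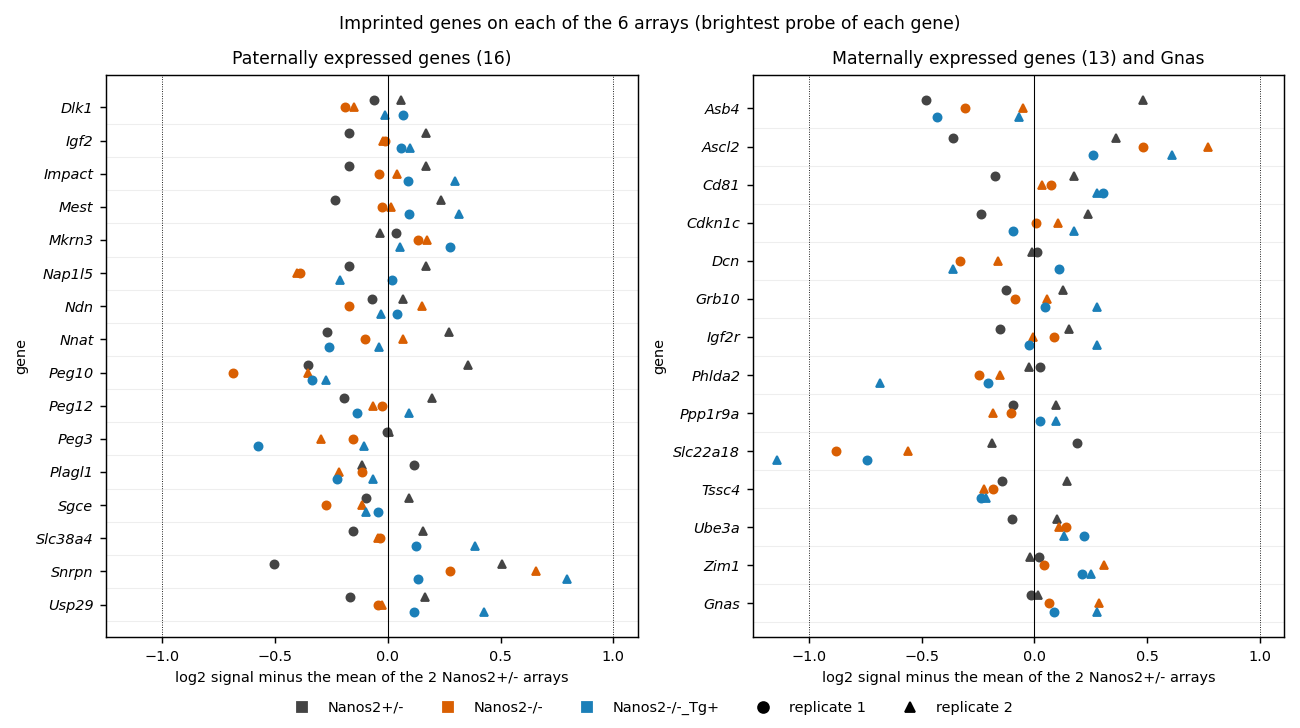
Log2 signal of each imprinted gene on each array, as the difference from the mean of the 2 Nanos2+/- arrays, by genotype (colour) and replicate (circle 1, triangle 2). The dotted lines mark a 2-fold difference, which 1 array of Slc22a18 passed, in Nanos2-/-_Tg+.

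The growth factor axis was bright and even. Igf2, the fetal growth ligand, read 15.46 and 15.80 in Nanos2+/-, 15.62 and 15.61 in Nanos2-/- and 15.69 and 15.73 in Nanos2-/-_Tg+. Igf2r, the receptor that takes IGF2 up for breakdown, read 12.16 and 12.47, 12.40 and 12.31, and 12.29 and 12.59 in the same order. The genotypes overlapped for both genes, except that Igf2 in Nanos2-/-_Tg+ lay just above Nanos2-/-. The Igf2 change from Nanos2+/- was -0.01 ± 0.19 (SE, n = 2 arrays per genotype) in Nanos2-/- and 0.08 ± 0.19 in Nanos2-/-_Tg+, and on a second probe, A_51_P516833, 0.08 and 0.23. Plagl1, a zinc finger factor, read 8.25 and 8.02 in Nanos2+/-, 8.02 and 7.92 in Nanos2-/- and 7.91 and 8.07 in Nanos2-/-_Tg+. Its change of -0.16 in Nanos2-/- had a 95% interval from -0.60 to 0.28.

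Dlk1, a membrane protein of the Notch ligand type, read 14.03 and 14.15 in Nanos2+/-, 13.90 and 13.94 in Nanos2-/- and 14.16 and 14.08 in Nanos2-/-_Tg+. Its 2 Nanos2-/- arrays were the lowest of the 6, by a change of -0.17 ± 0.18 from Nanos2+/- (limma adjusted p = 0.841). Mest, which codes for a protein of the hydrolase fold, lay between 15.56 and 16.11 on all arrays, with a difference of 0.46 between the Nanos2+/- arrays alone. Impact, a regulator of translation, read 11.36 and 11.70, 11.49 and 11.57, and 11.62 and 11.83. Nnat, a small membrane protein, read 11.10 and 11.64, 11.27 and 11.44, and 11.11 and 11.33. Impact was 0.20 higher in Nanos2-/-_Tg+ than in Nanos2+/-, and Nnat differed by -0.15. Slc38a4, an amino acid transporter, read 10.85 and 11.16, 10.97 and 10.96, and 11.13 and 11.39. Its second probe, A_52_P12403, read 6.66 and 6.51, 6.52 and 6.83, and 6.29 and 6.64, and changed in the other direction, by 0.09 in Nanos2-/- and -0.12 in Nanos2-/-_Tg+ against -0.04 and 0.25 on the brightest probe. Nap1l5, of the nucleosome assembly family, read 5.02 and 5.36, 4.80 and 4.79, and 5.21 and 4.98. The Nap1l5 arrays of Nanos2-/- lay below those of both other genotypes, with a change of -0.39 ± 0.20 from Nanos2+/- (limma adjusted p = 0.631).

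In the cluster around Snrpn and Ube3a on chromosome 7, Snrpn, a component of the splicing machinery, had the largest change on a brightest probe among paternally expressed genes in Nanos2-/-_Tg+, and its replicates differed most. It read 9.54 and 10.55 in Nanos2+/-, 10.32 and 10.70 in Nanos2-/- and 10.18 and 10.84 in Nanos2-/-_Tg+, and the genotypes overlapped. The change from Nanos2+/- was 0.47 ± 0.37 in both mutants (limma adjusted p = 0.776 and 0.706). Without Nanos2+/- replicate 1 it was -0.04 in both, and without Nanos2+/- replicate 2 it was 0.97 in both, so that 1 array decides it. The second Snrpn probe, A_51_P168862, changed by 0.55 and 0.53. On the brightest probes, Snrpn was the only one of the 30 genes with a 2-fold difference between replicates, 1.01 in Nanos2+/-. There 3.88% of all genes had one. Ndn, a growth suppressor of neurons, Mkrn3, a ubiquitin ligase, and Peg12, a GSK3-binding protein, changed by 0.17 or less in each of the 3 comparisons. Ube3a, a ubiquitin ligase, is the gene of this cluster listed as maternally expressed. It read 13.05 and 13.25 in Nanos2+/-, 13.29 and 13.26 in Nanos2-/- and 13.37 and 13.28 in Nanos2-/-_Tg+. It was 0.12 and 0.17 higher in the mutants than in Nanos2+/-, with no overlap. Its second probe, A_52_P625244, changed by 0.26 and 0.42 and overlapped in Nanos2-/-.

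In the cluster of Peg10 and Sgce on chromosome 6, Peg10, a gene derived from a retrotransposon, read 5.09 and 5.80 in Nanos2+/-, 4.76 and 5.09 in Nanos2-/- and 5.11 and 5.17 in Nanos2-/-_Tg+. Its change of -0.52 ± 0.27 in Nanos2-/- was the lowest on the brightest probes of the paternally expressed genes and was not called (limma adjusted p = 0.63). Leaving out Nanos2+/- replicate 1 or replicate 2 moved it to -0.87 or -0.16. Sgce, a sarcoglycan, changed by -0.19 and -0.07 from Nanos2+/-, and on its second probe, A_52_P27864, in the other direction, by 0.11 and 0.14. The genes there listed as maternally expressed are Ppp1r9a, an actin-binding protein of synapses, and Asb4, an adaptor of ubiquitin ligases. The brightest Ppp1r9a probe read 10.75 and 10.94 in Nanos2+/-, 10.74 and 10.66 in Nanos2-/- and 10.87 and 10.94 in Nanos2-/-_Tg+, a change of -0.14 and 0.06. Another, A_52_P159490, read 5.68 and 5.74, 5.31 and 5.65, and 5.24 and 5.41, a change of -0.22 and -0.38, so that the probes differed in direction in Nanos2-/-_Tg+. Asb4 read 12.08 and 13.04 in Nanos2+/-, 12.25 and 12.51 in Nanos2-/- and 12.13 and 12.49 in Nanos2-/-_Tg+. Both mutants fell inside the range of the Nanos2+/- arrays, and its second probe, A_51_P332998, changed by 0.00 and -0.10.

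The cluster controlled by Kcnq1ot1 on chromosome 7 held the lowest change of all 30 genes in both mutants and the highest in Nanos2-/-. Slc22a18, a transporter of the organic cation family, read 8.98 and 8.60 in Nanos2+/-, 7.91 and 8.23 in Nanos2-/- and 8.05 and 7.65 in Nanos2-/-_Tg+. All 4 arrays of the mutants lay below both Nanos2+/- arrays. The change was -0.72 ± 0.24 in Nanos2-/- (1.65-fold lower, 95% interval -1.28 to -0.16, limma adjusted p = 0.417) and -0.94 ± 0.24 in Nanos2-/-_Tg+ (1.92-fold lower, interval -1.49 to -0.38, limma adjusted p = 0.198). Across the alternative settings the adjusted p ran from 0.234 to 0.871 and from 0.108 to 0.797, and with normexp background correction the changes were 0.08 and -0.13. With that correction the median change of all named genes was 0.70 and 0.68, so that Slc22a18 still lay below it. A dimmer probe for Slc22a18, A_52_P640221, read 5.35 and 5.47, 5.38 and 5.19, and 5.12 and 5.05, with changes of -0.13 and -0.33. It overlapped between Nanos2-/- and Nanos2+/-, so that the probes did not give the same size of change. With the mean over both probes the changes were -0.42 and -0.63.

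Ascl2, a basic helix-loop-helix factor of the trophoblast, had the highest change in Nanos2-/-. It read 5.45 and 6.17 in Nanos2+/-, 6.29 and 6.58 in Nanos2-/- and 6.07 and 6.42 in Nanos2-/-_Tg+. It was 0.63 ± 0.28 higher in Nanos2-/- (1.54-fold, limma adjusted p = 0.575), and 0.26 or 0.99 when Nanos2+/- replicate 1 or 2 was left out. With normexp background correction the change was 0.10 in Nanos2-/- and 0.01 in Nanos2-/-_Tg+. Both lay below the median of all genes under that correction, 0.70 and 0.68. Cdkn1c, the cell cycle inhibitor p57, was bright and even, at 14.53 and 15.00 in Nanos2+/-, 14.77 and 14.87 in Nanos2-/- and 14.67 and 14.94 in Nanos2-/-_Tg+. Phlda2, which restrains growth of the placenta, read 9.48 and 9.43, 9.21 and 9.30, and 9.25 and 8.77. Its arrays in both mutants lay under those of Nanos2+/-, by -0.20 and -0.44. The latter was -0.68 or -0.20 without Nanos2-/-_Tg+ replicate 1 or 2, and the second probe, A_52_P350786, changed by 0.03 and -0.41. Tssc4, a factor of spliceosome assembly, changed by -0.20 and -0.23, and Cd81, a tetraspanin, by 0.05 and 0.29.

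**Figure D2:**
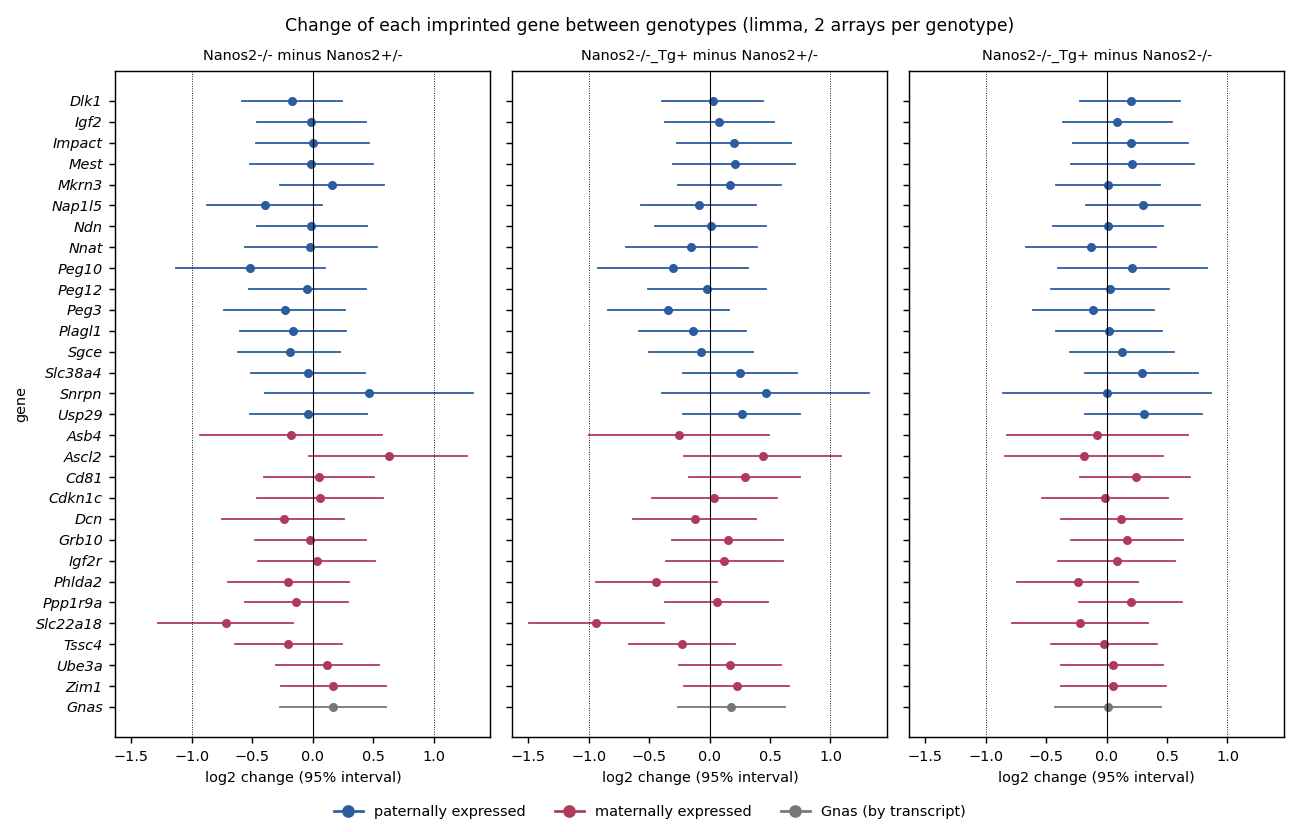
Log2 change (point) with its 95% limma interval (line) of each imprinted gene in the 3 comparisons, 2 arrays per genotype, with dotted lines at a 2-fold change. Slc22a18 is the only gene whose interval leaves out 0, in both comparisons with Nanos2+/-, and both comparisons share those arrays.

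In the Peg3 cluster of chromosome 7 the paternally expressed zinc finger gene Peg3 read lower in both mutants. Its brightest probe gave 10.98 and 10.99 in Nanos2+/-, 10.83 and 10.69 in Nanos2-/- and 10.41 and 10.88 in Nanos2-/-_Tg+, a change of -0.23 ± 0.22 and -0.34 ± 0.22. The second value was -0.10 or -0.58 without Nanos2-/-_Tg+ replicate 1 or 2. A second probe, A_52_P235861, gave 8.83 and 8.96, 8.30 and 8.22, and 8.01 and 8.18. There the 3 genotypes did not overlap, and the change was -0.64 ± 0.18 in Nanos2-/- (1.56-fold lower, limma adjusted p = 0.344) and -0.80 ± 0.18 in Nanos2-/-_Tg+ (1.75-fold lower, limma adjusted p = 0.171). Both probes had the same direction and neither was called. With normexp background correction, which put the median of all genes at 0.70 and 0.68, the brightest probe read 0.70 and 0.51 higher. Usp29, a deubiquitinase read from the shared promoter shown above, had 7.40 and 7.73, 7.52 and 7.54, and 7.68 and 7.99, with changes of -0.04 and 0.27. The maternally expressed zinc finger gene Zim1 changed by 0.17 and 0.23.

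Grb10, an adaptor that dampens insulin and IGF receptor signalling, depended on the probe. The brightest probe read 14.08 and 14.33 in Nanos2+/-, 14.12 and 14.26 in Nanos2-/- and 14.25 and 14.48 in Nanos2-/-_Tg+, with overlap throughout. Another, A_51_P187151, read 7.33 and 7.43, 6.85 and 6.72, and 6.92 and 6.96. It was lower in both mutants by -0.59 ± 0.18 (limma adjusted p = 0.363) and -0.44 ± 0.18 (limma adjusted p = 0.404). The remaining probe, A_52_P40363, ran from 7.51 to 9.10 and differed by over 1 between replicates of Nanos2+/- and of Nanos2-/-. Levels of different probes are not comparable with each other, and which transcripts each probe reads was not tested.

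**Figure D3:**
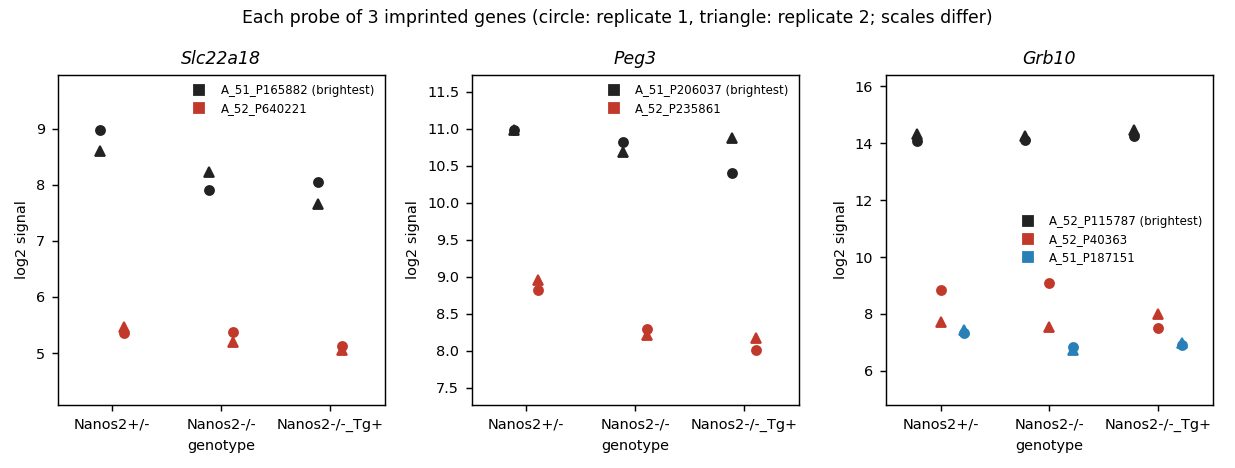
Log2 signal of every probe of Slc22a18, Peg3 and Grb10 on each array, by genotype on the horizontal axis, with circles for replicate 1 and triangles for replicate 2. The brightest probe of Slc22a18 and the dimmer probe of Peg3 lie lower in both mutants than in Nanos2+/-, while the brightest probe of Grb10 stays between 14.08 and 14.48.

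Gnas, the stimulatory G protein subunit whose transcripts come from different parental alleles, read 12.45 and 12.48 in Nanos2+/-, 12.53 and 12.75 in Nanos2-/- and 12.55 and 12.74 in Nanos2-/-_Tg+. The brightest probe was thus 0.17 and 0.18 above Nanos2+/-, with limma adjusted p of 0.847 and 0.789. A dim Gnas probe, A_52_P190394, was well above background only on the Nanos2-/-_Tg+ arrays, at 5.23 and 3.92. On the Nanos2+/- arrays it read 3.34 and 3.85, and on those of Nanos2-/- it stood at 3.53 and 3.66. It entered the tested probes through the genotype in which it is highest, so these values are a description. A dim Ppp1r9a probe, A_52_P167843, did not reach that level on either Nanos2+/- array. It read 3.59 and 3.58 there, 4.04 and 4.14 in Nanos2-/-, and 3.69 and 5.46 in Nanos2-/-_Tg+, where 1 of 2 arrays was well above background. A_52_P219393 of Gnas and A_52_P666754 of Ppp1r9a were not well above background on any array. Dcn, the proteoglycan decorin of connective tissue, read 15.08 and 15.06, 14.74 and 14.91, and 15.18 and 14.71.

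Counted by overlap alone, 5 of 30 genes were higher on both Nanos2-/- arrays than on both Nanos2+/- arrays, where 11.2% of all genes were, and 10 of 30 were lower, where 24.7% were. The higher ones were Ascl2, Gnas, Mkrn3, Ube3a and Zim1. The lower ones were Dcn, Dlk1, Nap1l5, Peg3, Phlda2, Plagl1, Ppp1r9a, Sgce, Slc22a18 and Tssc4, of which Plagl1 parted by less than the rounding of its values. Between Nanos2-/-_Tg+ and Nanos2+/-, 5 of 30 were higher, against 17.3% of all genes, namely Cd81, Gnas, Mkrn3, Ube3a and Zim1. Another 4 of 30 were lower, against 21.0%, namely Peg3, Phlda2, Slc22a18 and Tssc4. These splits depended on the scaling. With quantile normalization 12 of 30 were higher in Nanos2-/- and 3 lower, while over all genes the shares were 22 and 24.2%. In Nanos2-/-_Tg+ 12 of 30 were higher with the 75th percentile and 12 with quantile normalization, against 22.4 and 26.2% of all genes, and 13 with normexp background correction, against 31.4%. The lower ones there were 5, 4 and 2 of 30, against 26.2, 24.4 and 8.76%.

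Between the mutants, which shared a slide, no imprinted gene was called, and the changes of single genes were small. Of the 30 genes, 11 were higher on both Nanos2-/-_Tg+ arrays than on both Nanos2-/- arrays, against 23.0% of all genes, and 0 were lower, against 8.01%. They were 9 of the 16 paternally expressed genes (Dlk1, Igf2, Impact, Mest, Nap1l5, Peg10, Sgce, Slc38a4 and Usp29) and 2 of the 13 maternally expressed genes (Cd81 and Ppp1r9a). The largest change was that of Usp29, 0.31 ± 0.21 (95% interval -0.18 to 0.79, limma adjusted p = 1). Nap1l5 changed by 0.30, Slc38a4 by 0.29 (-0.21 on its second probe), Mest by 0.21, Dlk1 by 0.20 and Igf2 by 0.09. The median log2 change was 0.11 for the paternally expressed, 0.05 for the maternally expressed and 0.05 for all named genes, and the first lay within the SD of 0.12 between replicates. With the mean over the probes of a gene it was 0.06. With the 75th percentile 8 of 16 paternally expressed genes were higher without overlap and 1 was lower, against 20.2 and 12.9% of all genes. With quantile normalization or normexp background correction 6 of 16 were higher and 1 was lower. Of all genes, 18.3 and 16.8% were higher and 14.2 and 12.3% lower under these 2 settings. The median of the paternally expressed genes was 0.05 with quantile normalization and 0.03 with normexp. These recounts were chosen after the data were seen.

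Markers of other cell types moved in the same comparison. All 6 stroma markers were higher in Nanos2-/-_Tg+ than in Nanos2-/-, 5 of them without overlap, with a median log2 change of 0.25. Their summed signal was 107200 and 114600 in Nanos2-/-, 133200 and 135300 in Nanos2-/-_Tg+ and 113600 and 133500 in Nanos2+/-. Of 6 blood markers 5 were higher, 3 without overlap, with a median of 0.29, and their summed signal was 154200 and 139800 in Nanos2-/- against 201700 and 208300 in Nanos2-/-_Tg+. Of all named genes tested 62.6% were higher, and 23.0% were higher without overlap. All 7 Sertoli cell markers were higher, 3 without overlap, and 3 of 5 endothelial markers were, all 3 without overlap. Of 7 germ cell markers 5 were higher, 1 without overlap, and of 5 mesonephros markers 3 were, 2 without overlap. Of 5 Leydig cell markers 1 was higher and 4 were lower. The medians of the other lists were 0.18 for 7 germ cell markers, 0.08 for 7 Sertoli cell markers and 0.16 for 5 endothelial markers. They were -0.13 for 5 Leydig cell markers and 0.06 for 5 mesonephros markers, whose single changes ran from -0.65 to 0.49. The mesonephros marker Cdh16 differed between replicates by 2.55 in Nanos2+/- and by -3.11 in Nanos2-/-. The adrenal marker Mc2r changed by -0.01. The part of these cell types in the change of the imprinted genes was not tested.

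**Figure D4:**
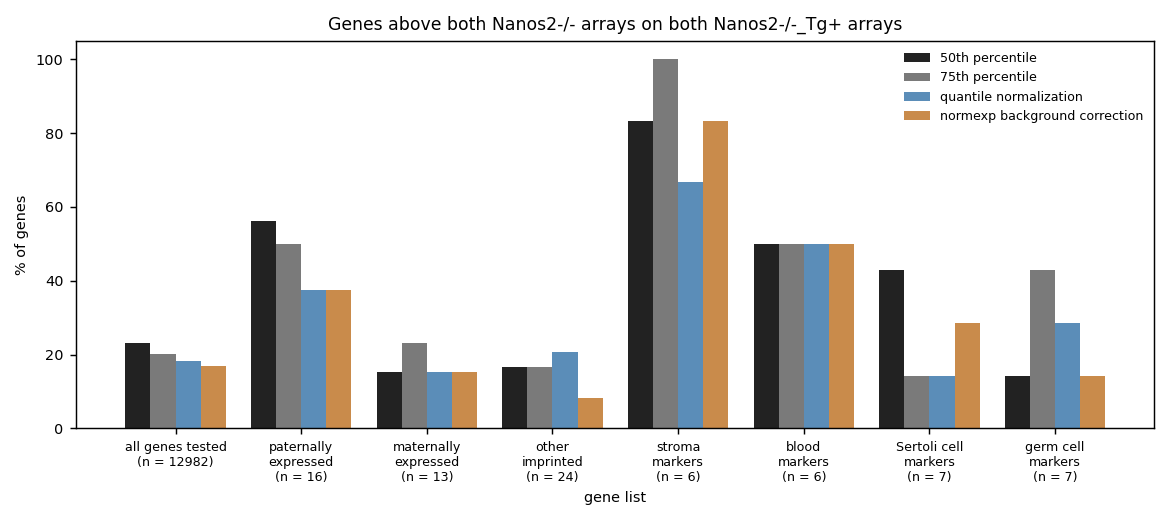
Share of the genes of each list (bars, % of genes) whose signal on both Nanos2-/-_Tg+ arrays lay above both Nanos2-/- arrays, under 4 ways of scaling. The share of paternally expressed genes is 56.2% with the 50th percentile and 37.5% with quantile normalization, and the share of the 6 stroma markers is the higher of both under each scaling.

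The spread between replicates of the imprinted genes was close to that of all genes in Nanos2+/-, below it in Nanos2-/- and above it in Nanos2-/-_Tg+. The median absolute difference between the 2 arrays of a genotype was 0.31 in Nanos2+/-, 0.09 in Nanos2-/- and 0.22 in Nanos2-/-_Tg+ for the 30 genes, and 0.33, 0.18 and 0.16 for all named genes. In Nanos2+/- replicate 2 read higher than replicate 1 by a median of 0.30, and by 0.28 over all genes. The summed signal of the 30 genes was 298000 and 369400 in Nanos2+/-, 318200 and 329600 in Nanos2-/- and 350200 and 362600 in Nanos2-/-_Tg+, so that both mutants lay between the Nanos2+/- arrays. With 2 arrays against 2, an exact permutation test of a single gene cannot give a two-sided p below 0.333, and the p-values above rest on a spread shared across genes by limma.

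Other imprinted genes were read from a second list of 43 genes, of which 32 had a matched probe and 24 were tested. The numbers called were 0, 0 and 0 of 24 in the 3 comparisons by limma, and 0, 0 and 0 by the methods' t-test. At an unadjusted limma p below 0.05 they were 2, 2 and 0 of 24, close to the 8.50, 10.2 and 1.73% of all named genes. Their median log2 change was -0.09 and -0.07 from Nanos2+/-, and 0.07 between the mutants. The largest change in Nanos2-/- was that of Cobl, an actin nucleator, with 7.91 and 7.71 in Nanos2+/- and 7.13 and 7.42 in Nanos2-/-, a change of -0.54 ± 0.20 (limma adjusted p = 0.49). In Nanos2-/-_Tg+ it was that of Dio3, which inactivates thyroid hormone, with 8.08 and 8.45 in Nanos2+/- and 9.17 and 8.69 in Nanos2-/-_Tg+, a change of 0.67 ± 0.23 (limma adjusted p = 0.327), or 0.42 without Nanos2-/-_Tg+ replicate 1. Between the mutants it was that of Atp10a, a phospholipid flippase, with 7.57 and 7.78 in Nanos2-/- and 6.99 and 7.42 in Nanos2-/-_Tg+, a change of -0.47 ± 0.25 (limma adjusted p = 1), or -0.26 without Nanos2-/-_Tg+ replicate 1.

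Genes that write or protect imprints were mostly even, and Dnmt3l had the largest changes from Nanos2+/- and the largest spread between the Nanos2+/- arrays. Dnmt3l, the cofactor of de novo methylation in male germ cells, read 13.40 and 11.12 in Nanos2+/-, 10.09 and 9.99 in Nanos2-/- and 10.66 and 10.06 in Nanos2-/-_Tg+. All 4 arrays without wild-type Nanos2 were below both Nanos2+/- arrays, which themselves stood further apart than those of any other regulator. The change was -2.22 ± 0.63 in Nanos2-/- (limma adjusted p = 0.344) and -1.90 ± 0.63 in Nanos2-/-_Tg+ (limma adjusted p = 0.303), and was not called. Without Nanos2+/- replicate 1 it was -1.08 and -0.76, and without replicate 2 it was -3.36 and -3.04. Dnmt3a, the methyltransferase itself, read 11.50 and 10.92, 10.64 and 11.13, and 11.16 and 11.35. Its change from Nanos2+/- was -0.33 ± 0.27 in Nanos2-/- and 0.04 ± 0.27 in Nanos2-/-_Tg+. Between the mutants it was 0.37 ± 0.27 without overlap, the largest of the regulators there, beside 0.32 ± 0.63 for Dnmt3l. Zfp57 read 7.52 and 7.47, 7.73 and 7.66, and 7.67 and 7.44, and its corepressor Trim28 and the maintenance genes Dnmt1 and Uhrf1 changed by 0.17 or less in each comparison. Of 11 listed regulators 8 were tested, and 0 were called in each comparison. Dnmt3l was the only one of the 8 with an unadjusted limma p below 0.05, in both comparisons with Nanos2+/-, where 8.50 and 10.2% of all genes had one.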

How the data were processed

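Total RNA of E14.5 male gonads (0.20 µg per array) was labelled with Cy3 by the authors and hybridized to 6 one-colour Agilent whole mouse genome arrays. Groups and replicate numbers came from the sample labels. The deposited intensity values are processed signals after background subtraction in Agilent Feature Extraction (9.5 per the labels), and the deposited table of the series holds the same intensity. In the methods, values under 5 became 5, arrays were normalized to the 50th percentile, and genes to their median.

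Here control and outlier spots were left out. Signals were brought to a common 50th percentile, floored at 5, log2-transformed and averaged per probe, giving 41174 probes, of which 23374 had a current symbol through the accession of the design. limma 3.58.1 (lmFit and eBayes, R 4.3.3, with version 1.17.8 of data.table) was fitted to the 26711 probes that exceeded background on both arrays of 1 genotype or more and had a value in each genotype. Python 3.11.15 with pandas 2.3.3 and matplotlib 3.10.9 gave the remaining numbers and the figures. The script was tested on simulated data. No spot was saturated, and 2 arrays per genotype limit the precision. Labels call the arrays biological duplicates without naming animals, so p-values measure the spread between these samples, which may be technical in part.

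The listed genes, the other gene lists and the cell type markers were chosen with earlier results of these data known. All listed genes with a probe are named by their brightest probe, with the values of their other probes. Other imprinted genes and regulators are given by counts, naming the largest change in each comparison, and Zfp57, Trim28, Dnmt1 and Uhrf1 were named in addition. The list of other imprinted genes is given with no parental split. Alternatives tried were quantile normalization, the 75th percentile, normexp (offset 50) on the median spot signal, a floor of 5 before scaling or of 20, other filters on dim probes, outlier spots kept, the deposited table in place of the scanner files, a block for the replicate number, a fit of 4 arrays alone, an intensity trend, the methods' t-test with equal variances, the mean over a gene's probes, and each array left out. Promoter windows came from a RefSeq table, with their own build, and no coordinates of array probes are given, since the builds differ.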

Additional observations from a re-analysis of the deposited data

How the results depend on the processing

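No imprinted gene was called under any of the 22 alternatives run, in any of the 3 comparisons. Normexp background correction, a floor of 20 and the methods' t-test after Benjamini-Hochberg called 0 of all 26711 probes in each comparison, and no filter 0 of 41174 between the mutants, so the 0 for imprinted genes says nothing there. With the replicate block 0, 0 and 0 of 30 were called, and over all probes 18, 145 and 4 against 18, 28 and 5 without it. The correlation between genotypes of the differences between same-numbered arrays was 0.355, 0.313 and 0.259, with only 2 numbers and no label saying what a number shares.

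Normexp background correction put the median of all genes at 0.70 (Nanos2-/-) and 0.68 (Nanos2-/-_Tg+) relative to Nanos2+/-, against -0.07 and -0.02. The paternally expressed medians were then 0.85 and 0.86 and the maternally expressed ones 0.77 and 0.78, and 34 of 90 single changes turned their sign. Leaving out 1 array at a time gave paternally expressed medians from -0.22 to 0.12 (all genes -0.21 and 0.07) in Nanos2-/-, from -0.05 to 0.13 in Nanos2-/-_Tg+ and from 0.06 to 0.20 between the mutants. The maternally expressed medians ran from -0.18 to 0.16, from -0.04 to 0.22 and from -0.01 to 0.07. The ends relative to Nanos2+/- came from leaving out its replicate 1 (lowest) or 2 (highest). Signs turned for 13 of 90 uncalled single changes with quantile normalization, 9 with the 75th percentile and 5 to 15 with an array left out. The cause was not tested.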

Other observations

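Snrpn read higher on replicate 2 than on replicate 1 in each genotype, by 1.01 in Nanos2+/-, 0.38 in Nanos2-/- and 0.66 in Nanos2-/-_Tg+. Of the germ cell markers, Pou5f1, which maintains pluripotency, Dppa3, which protects imprints in the early embryo, Dazl and Ddx4 did so as well. Dnd1 did not in Nanos2-/-_Tg+, where it differed by -0.09. Mael differed by -0.30, 0.15 and -0.32 in the 3 genotypes, and Tdrd1 by -0.41, 0.27 and -0.25. The order was not particular to Snrpn or to germ cell markers. The Sertoli cell markers Cst9, Dhh and Aard also read higher on replicate 2 in each genotype, while Sox9, Amh, Ptgds and Fgf9 did not in Nanos2-/-. Among the imprinted genes Asb4, Ascl2, Cdkn1c, Gnas, Grb10, Impact, Mest, Nnat, Peg10 and Usp29 did so on their brightest probes. Over all named genes tested the median difference was 0.28, 0.12 and 0.05, and the share of genes with this order was not counted. Pou5f1 read 10.62 and 12.43, 10.53 and 12.39, and 10.78 and 12.61 on replicates 1 and 2 of the 3 genotypes, and Dppa3 read 14.86 and 15.95, 15.45 and 15.84, and 15.34 and 15.93. What the replicate number shares across genotypes is not in the labels. Snrpn, Pou5f1 and Dppa3 were chosen after their values were seen.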
